A study of Mus musculus with 2 samples.

Results

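The genes described here cover the path of iron through a developing red cell, from its uptake at the surface to its delivery to mitochondria and its storage in ferritin. There are 9 of them, Tfrc, Steap3, Slc11a2, Slc25a37, Fth1, Ftl1, Ncoa4, Ireb2 and Aco1, taken by symbol from the 32285 genes listed in each count matrix, where all 9 were found. The symbol alone decided which rows were taken. The 9 genes held 715566 UMIs (unique molecular identifiers, each counting 1 captured RNA molecule) in the PHZ matrix and 501839 UMIs in the bleeding matrix, which were 0.558% and 0.345% of all UMIs.

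Single-cell RNA sequencing in droplets was applied to spleens of C57BL/6 mice. In the PHZ group the mice had received injections of PHZ (in common use short for phenylhydrazine, an oxidant that destroys circulating red cells) every 3 days over 1 month, and in the bleeding group blood had been taken at the same interval for the same time, so both groups were chronically anaemic and neither was healthy. Both libraries were made from live spleen cells with the 10x Genomics 3' v3.1 chemistry, which reads the 3' end of each transcript. Each group had 1 library, the labels give no number, age or sex of the mice behind it, and no difference between PHZ and bleeding could be tested. Intervals given below are 95% intervals for counting error only, and they do not cover differences between animals or between preparations.

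Erythroblasts take up transferrin-bound iron through the transferrin receptor, reduce it in the endosome, move it to the cytosol and pass it to mitochondria, where haem and iron-sulfur clusters are made. Iron that is not used is stored in ferritin, a shell of heavy and light chains, and is released when ferritin is carried to lysosomes. A pair of iron regulatory proteins binds hairpins called iron-responsive elements in messenger RNAs when iron is scarce: an element in the 5' untranslated region then blocks translation, and elements in the 3' untranslated region protect the transcript from decay. Red pulp macrophages of the spleen handle iron in the opposite direction, since they engulf old red cells and recycle their haem iron.

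The elements found in 3 of the members, Fth1, Ftl1 and Tfrc, are shown first, because they are the sequences through which these transcripts come under that control. They were found in the mouse GRCm38 assembly, with the gene models of GENCODE, by a pattern read on the sense strand of the transcript: a C, 5 bases, the loop CAGTGN, and 5 bases that pair with the first 5, G-T pairs allowed. Each is printed 5′ to 3′ as DNA with the loop in capitals.
Fth1, 5' untranslated region, chr19:9982733-9982759, plus strand: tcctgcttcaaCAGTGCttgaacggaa
Ftl1, 5' untranslated region, chr7:45459780-45459806, minus strand: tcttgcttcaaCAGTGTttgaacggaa
Tfrc, 3' untranslated region, chr16:32631220-32631246, plus strand: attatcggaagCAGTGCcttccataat
Tfrc, 3' untranslated region, chr16:32631599-32631625, plus strand: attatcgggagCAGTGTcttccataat
Tfrc, 3' untranslated region, chr16:32631664-32631690, plus strand: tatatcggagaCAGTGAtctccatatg
Tfrc, 3' untranslated region, chr16:32631711-32631737, plus strand: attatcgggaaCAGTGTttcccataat
Alas2, 5' untranslated region, chrX:150547459-150547485, plus strand: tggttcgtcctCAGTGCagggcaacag
Slc40a1, 5' untranslated region, chr1:45925466-45925492, minus strand: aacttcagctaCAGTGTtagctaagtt
The pattern occurred in the 5' untranslated region of 31 of 21901 genes (0.142%) and in the 3' untranslated region of 129 (0.589%). Among the 9 members it was found once in Fth1, once in Ftl1 and 4 times in Tfrc. Alas2 (the first enzyme of erythroid haem synthesis) and Slc40a1 (ferroportin, the iron exporter) are shown for comparison and are no members. A match is a description of these letters, and no match says only that these letters are not in the window searched.

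Tfrc lies at chr16:32608920-32632794, Steap3 at chr1:120190757-120272705, Slc11a2 at chr15:100387898-100425072 and Slc25a37 at chr14:69241848-69285112. Fth1 lies at chr19:9980598-9985098 and Ftl1 at chr7:45457944-45459884, on different chromosomes. Ncoa4 lies at chr14:32159865-32179855, Ireb2 at chr9:54863789-54912530 and Aco1 at chr4:40143081-40198338. All of these are GRCm38 coordinates from the annotation. Ftl1 has a near-identical processed copy, Ftl1-ps1, whose UMIs were 0.686% to 0.917% of those of Ftl1 in the erythroid ranges, so how the authors' counting split reads between the pair is uncertain.

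After filters on depth, genes and mitochondrial share and the removal of likely doublets, 6113 PHZ cells and 8953 bleeding cells remained, with medians of 12242 and 8045 UMIs. Erythroid-like cells numbered 3133 in PHZ and 2274 in bleeding, red pulp macrophage-like cells 17 and 216, monocyte-like cells 154 and 71, neutrophil-like cells 295 and 113, B cell-like cells 1581 and 3537, T cell-like cells 449 and 1913, NK cell-like cells 67 and 159, and dendritic-like cells 95 and 172. In the erythroid ranges none of 41 erythroid markers was at 0, and their summed level was 18253 CPM in PHZ and 16900 CPM in bleeding in the cells of least haemoglobin, and 173275 and 183254 CPM in those of most haemoglobin with 300 or more genes. The libraries shared 15 cell barcodes, 0.245% of the PHZ cells and 0.168% of the bleeding cells. Haemoglobin made up 40.5% of the UMIs in PHZ barcodes of 10 to 100 UMIs and 33.5% in the bleeding ones. These barcodes were taken to hold free RNA rather than cells, which was not tested, and their RNA is called free RNA below.

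Erythroid maturation was followed through the share of a cell's UMIs that came from haemoglobin genes. There were 6 ranges: under 20%, 20 to 50%, 50 to 80%, 80% or more with at least 500 genes detected, 80% or more with at least 300 but fewer than 500 genes, and 80% or more with at least 50 but fewer than 300 genes. They are called below the late range with at least 500 genes, the one with 300 to 500 genes and the one with fewer than 300 genes; barcodes of the last were not clustered. They held 327, 248, 886, 404, 1268 and 2539 barcodes in PHZ, against 153, 77, 375, 199, 1470 and 2991 in bleeding. A range is not a cell type: within 2 percentage points of the cuts at 20%, 50% and 80% lay 40, 56 and 112 of the 3133 PHZ cells and 12, 26 and 80 of the 2274 bleeding cells. Levels are UMIs summed over the cells of a range or class and scaled to the total of UMIs without haemoglobin genes, in the usual CPM unit. A member was called higher or lower when the groups together held at least 100 of its UMIs and their levels differed by at least 1.5-fold, which is a rule of size and not a test.

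Along maturation the 9 genes did not move together. Compared with cells at 20 to 50% haemoglobin, those at 80% or more with at least 500 genes had lower Tfrc and Slc11a2 and higher Ftl1 and Ncoa4, in both libraries. Slc25a37 and Fth1 did not pass the 1.5-fold size in both libraries, in either direction. Of the 1985 genes that could be compared in both libraries, 17.5% were higher and 62.0% lower by the same rule, with 12% and 75.5% in PHZ and 19.7% and 65.4% in bleeding, so the 2 lower members stand against a background in which most genes were lower. These calls hold for levels without haemoglobin UMIs: over all UMIs 0 members were higher and 4 lower, Tfrc, Slc11a2, Slc25a37 and Fth1. Aco1, Ireb2 and Steap3 had too few UMIs in the late range of at least 1 library to be called in both.

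Tfrc encodes the transferrin receptor, the entry point of transferrin iron. Over the 6 ranges its level was 854, 2727, 3203, 972, 324 and 201 CPM in PHZ, against 626, 2066, 2209, 672, 54.3 and 46.2 CPM in bleeding. On this scale it was highest at 50 to 80% haemoglobin in both libraries, and lower in the 3 ranges above 80%. The range under 20% was mixed. Its cluster led by mitotic genes, described below, had Tfrc at 3057 CPM in PHZ and 2537 CPM in bleeding, above the 20 to 50% level. Over all UMIs Tfrc was highest at 20 to 50% instead, with 0.106% at 50 to 80% and 0.175% at 20 to 50% in PHZ, and 0.0702% and 0.131% in bleeding. Per cell it was highest under 20%, with 36.8 UMIs in PHZ and 26.4 in bleeding. The level at 80% or more with at least 500 genes was 0.356 times that at 20 to 50% in PHZ (interval 0.333 to 0.381) and 0.325 times in bleeding (0.287 to 0.367). Per barcode the decline was steeper: there were 2.35 Tfrc UMIs per cell in that late range and 36.0 at 20 to 50% in PHZ, and 1.51 and 23.6 in bleeding. The median of UMIs without haemoglobin per cell was 2191 in the late and 12217 in the 20 to 50% range in PHZ, and 2108 and 9785 in bleeding.

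Steap3 encodes the endosomal ferrireductase and Slc11a2 encodes DMT1, the transporter that moves ferrous iron out of the endosome. Steap3 was at 93.9, 51.3 and 15.5 CPM over the first 3 ranges in PHZ, against 90.8, 48.9 and 18.7 CPM in bleeding. It was thus at its highest in the least haemoglobinised cells, and above 80% haemoglobin it was at the edge of detection, with 4, 4 and 5 UMIs over the 3 late ranges in PHZ and 1, 6 and 2 in bleeding. Slc11a2 was at 55.5, 102 and 63.6 CPM over the first 3 ranges in PHZ, against 56.8, 118 and 67.8 CPM in bleeding. Its late range held 14 UMIs in PHZ and 4 in bleeding, and its level there was 0.140 times that at 20 to 50% haemoglobin in PHZ (0.0758 to 0.238) and 0.0754 times in bleeding (0.0202 to 0.199). Counted per cell, Steap3, Slc11a2 and Tfrc were all highest under 20% haemoglobin, in both libraries.

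**Figure D1:**
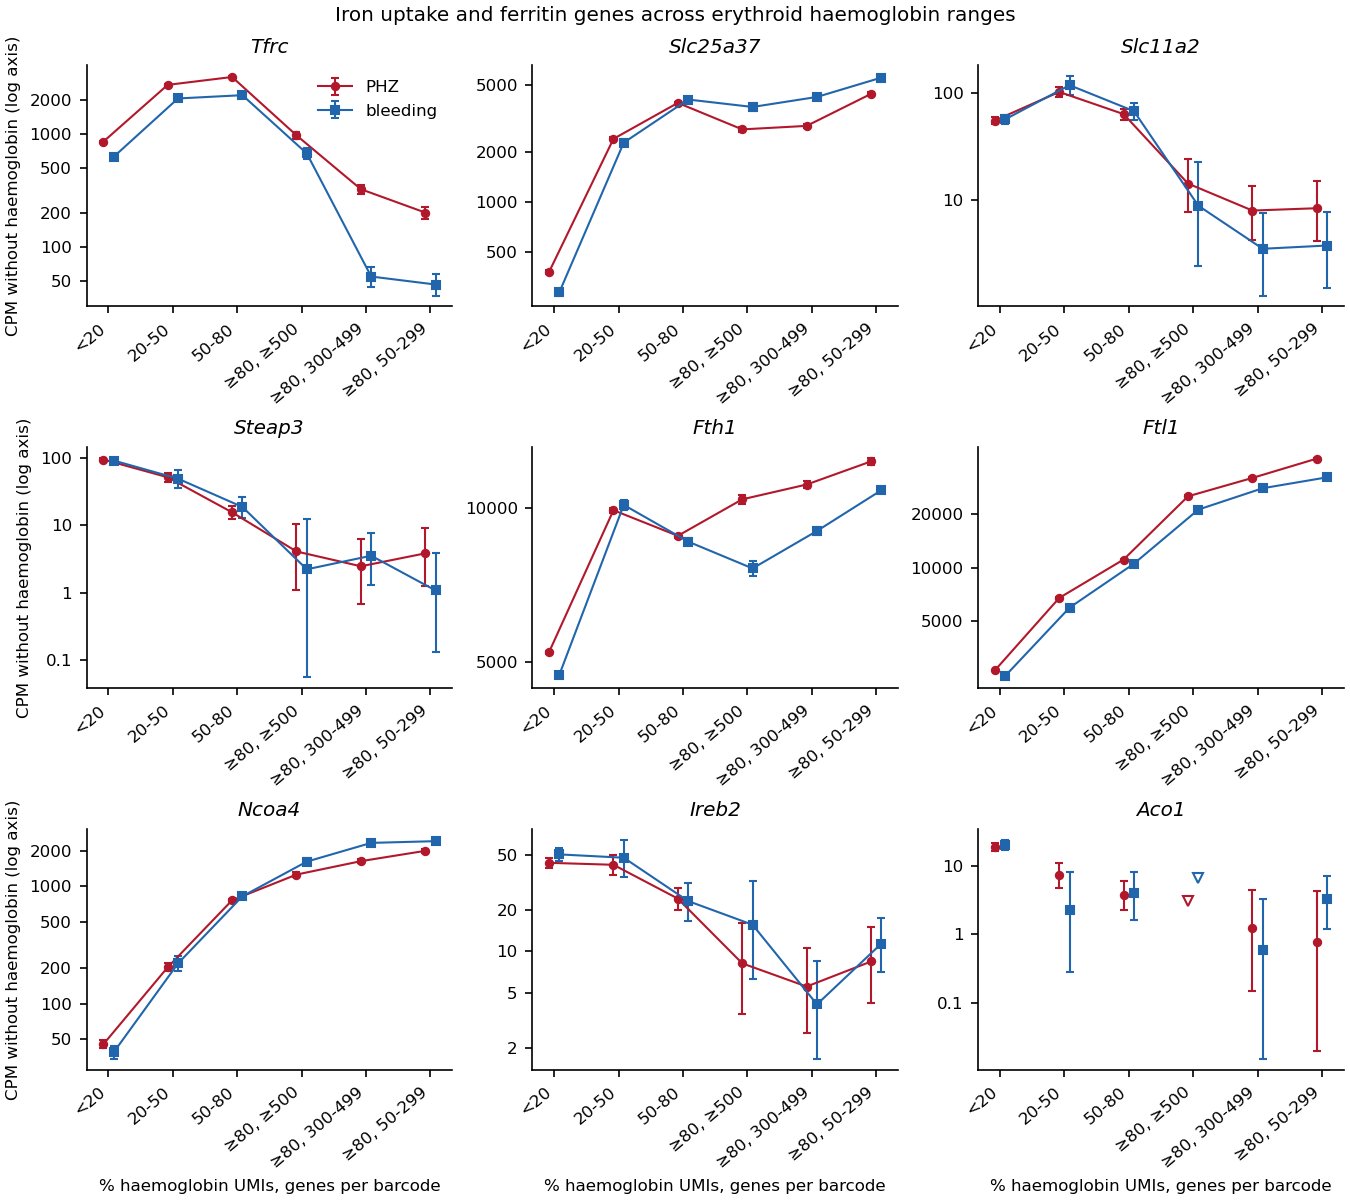
Level of each of the 9 genes (CPM without haemoglobin UMIs, log axis) across the 6 erythroid ranges, named by the percentage of haemoglobin UMIs and the genes per barcode, for PHZ (red circles) and bleeding (blue squares). Bars are 95% counting intervals and open triangles mark the limit that a count of 0 allows. On this scale Tfrc is highest at 50 to 80% in both libraries, Ftl1 and Ncoa4 are highest in the ranges above 80%, and the Tfrc curves separate at 80% or more with 300 to 500 genes (324 CPM in PHZ and 54.3 CPM in bleeding).

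Slc25a37 encodes mitoferrin 1, which carries iron into the mitochondria of erythroid cells. Its level was 381, 2381, 3909, 2713, 2848 and 4427 CPM over the 6 ranges in PHZ, against 288, 2261, 4094, 3695, 4243 and 5535 CPM in bleeding. The cells at 20 to 50% haemoglobin stood at 6.26 times the level under 20% in PHZ and 7.84 times in bleeding. That step did not hold for all cells under 20%. In the cluster led by Car1, described below, Slc25a37 was at 245 CPM in PHZ and 131 CPM in bleeding. In the cluster led by mitotic genes it was at 2900 and 3302 CPM, above the 20 to 50% level. On this scale, unlike Tfrc, Slc25a37 was in no later range below the 20 to 50% level. Over all UMIs it was lower in the late range with at least 500 genes, at 0.0347% against 0.152% at 20 to 50% in PHZ and 0.0467% against 0.144% in bleeding, and per cell too, at 6.56 against 31.4 UMIs in PHZ and 8.32 against 25.8 in bleeding. Without haemoglobin UMIs that late range was at 1.14 times the 20 to 50% level in PHZ (1.09 to 1.19) and at 1.63 times in bleeding (1.53 to 1.75). For each Tfrc UMI there were 0.446, 0.873, 1.22, 2.79, 8.80 and 22.1 Slc25a37 UMIs over the 6 ranges in PHZ, against 0.461, 1.09, 1.85, 5.5, 78.1 and 120 in bleeding. Over the first 4 ranges the balance of mitochondrial import over surface uptake transcripts therefore moved the same way in both libraries, and further in bleeding. In the last 2 ranges the bleeding values rest on 92 and 85 Tfrc UMIs. Free RNA, estimated as described below, came to 160% and 207% of those UMIs. In PHZ it came to 46.0% and 96.6%. The part of free RNA in these last values was not tested.

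Fth1 encodes the ferritin heavy chain, which oxidises iron on entry, and Ftl1 the light chain, which helps it to mineralise inside the shell. Ftl1 was at 2651, 6766, 11121, 25180, 31936 and 41005 CPM over the 6 ranges in PHZ, against 2465, 5968, 10536, 21207, 27956 and 32188 CPM in bleeding. It was higher in each range than in the one before it. The late range with at least 500 genes was at 3.72 times the 20 to 50% level in PHZ (3.65 to 3.79) and at 3.55 times in bleeding (3.44 to 3.68); as a share of all UMIs, haemoglobin included, the direction turned, with 0.322% in the late and 0.433% in the 20 to 50% range in PHZ, and 0.268% and 0.379% in bleeding. In UMIs per cell Ftl1 was at 60.8 in the late and 89.3 in the 20 to 50% range in PHZ, and at 47.8 and 68.1 in bleeding.

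Fth1 followed another course. Its level was 5229, 9879, 8808, 10373, 11085 and 12296 CPM over the 6 ranges in PHZ, against 4726, 10117, 8583, 7611, 9003 and 10807 CPM in bleeding. On this scale, after the step between the first and the second range, it stayed within 1.5-fold of the second range, and the late range stood at 1.05 times the 20 to 50% level in PHZ (1.03 to 1.07) and at 0.752 times in bleeding (0.723 to 0.783). Over all UMIs it was lower in the late range, at 0.133% against 0.632% at 20 to 50% in PHZ and 0.0962% against 0.642% in bleeding, and per cell it was at 25.1 against 130 UMIs in PHZ and 17.1 against 115 in bleeding. Together the ferritin chains made up 0.788%, 1.66%, 1.99%, 3.56%, 4.30% and 5.33% of the UMIs without haemoglobin over the 6 ranges in PHZ, against 0.719%, 1.61%, 1.91%, 2.88%, 3.70% and 4.30% in bleeding. Beyond the 20 to 50% range most of that growth was in light chain UMIs.

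The ratio of Fth1 to Ftl1 UMIs shows this shift within each library. It was 1.97, 1.46, 0.792, 0.412, 0.347 and 0.30 over the 6 ranges in PHZ, against 1.92, 1.70, 0.815, 0.359, 0.322 and 0.336 in bleeding. Over whole ranges the ratio was above 1 below 50% haemoglobin and below 1 above it, in both libraries. Under 20% this value came from a cluster rich in UMIs, with 61916 Fth1 and 30803 Ftl1 UMIs in PHZ and 24619 and 12830 in bleeding. In the cluster led by mitotic genes, described below, Fth1 was the lower of the pair, with 371 Fth1 and 378 Ftl1 UMIs in PHZ and 146 and 197 in bleeding. It compares UMIs of 2 genes whose capture may differ, so its change between ranges is informative and its absolute value is not. Elsewhere in the spleen it was 1.13 in PHZ and 1.05 in bleeding for red pulp macrophage-like cells, 0.650 and 0.570 for monocyte-like cells, 0.709 and 0.811 for neutrophil-like cells, 1.99 and 2.35 for B cell-like cells, and 1.15 and 1.47 for T cell-like cells. The late erythroid ratios were thus the lowest among the groups measured here, and those of B cell-like and of the least haemoglobinised erythroid cells were the highest.

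**Figure D2:**
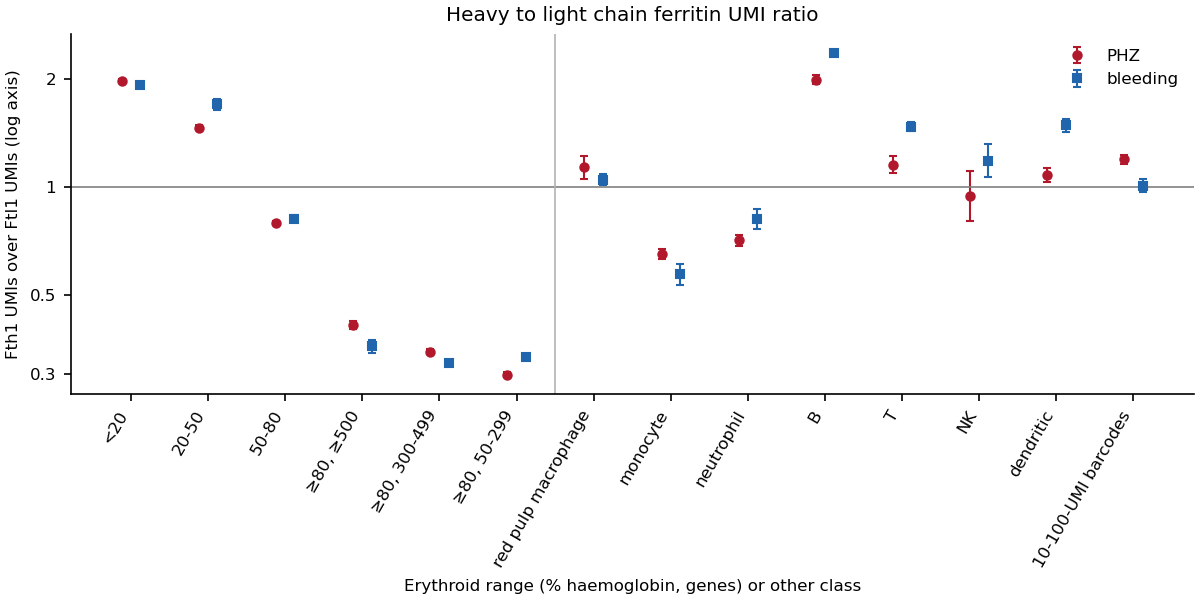
Fth1 UMIs over Ftl1 UMIs (log axis) in the 6 erythroid ranges, 7 other cell classes and barcodes of 10 to 100 UMIs, for PHZ (red circles) and bleeding (blue squares), with 95% counting intervals. The ratio lies at 1.97 in PHZ and 1.92 in bleeding under 20% haemoglobin and at 0.30 and 0.336 in the last range, the lowest part of the plot.

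Ncoa4 encodes the receptor that carries ferritin to the lysosome, where its iron is freed. Its level was 45.2, 205, 761, 1260, 1639 and 2007 CPM over the 6 ranges in PHZ, against 38.6, 221, 823, 1624, 2344 and 2426 CPM in bleeding. It was higher in each range than in the one before, and the late range with at least 500 genes stood at 6.16 times the 20 to 50% level in PHZ (5.60 to 6.77) and at 7.36 times in bleeding (6.27 to 8.67). As a share of all UMIs, haemoglobin included, it was also higher in the late range, at 0.0161% against 0.0131% in PHZ and 0.0205% against 0.0140% in bleeding, but under the 1.5-fold size. Counted per cell, Ncoa4 was at 3.04 UMIs in the late and 2.70 in the 20 to 50% range in PHZ, and at 3.66 and 2.52 in bleeding. Of the 6 members that could be compared in both libraries, Ncoa4 was the only one whose UMIs per cell were higher in that late range than at 20 to 50% in both libraries, by 1.13 times in PHZ and 1.45 times in bleeding, both below the 1.5-fold size.

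Ireb2 and Aco1 encode the iron regulatory proteins IRP2 and IRP1, and Aco1 is also the cytosolic aconitase. Ireb2 was at 43.9, 42.5 and 24.2 CPM over the first 3 ranges in PHZ, against 50.5, 47.8 and 23.2 CPM in bleeding. It was low but measurable there, and above 80% haemoglobin only 8, 9 and 11 UMIs were left in PHZ and 7, 7 and 21 in bleeding. Aco1 was at 18.8 CPM in PHZ and 20.3 CPM in bleeding under 20% haemoglobin, from 265 and 131 UMIs. In the later ranges it held 24, 18, 0, 2 and 1 UMIs in PHZ and 2, 7, 0, 1 and 6 in bleeding, where a count of 0 allows a level of up to 3.07 CPM in PHZ and 6.69 CPM in bleeding. Most UMIs of both regulators thus came from the ranges below 80% haemoglobin, which also held most of the UMIs without haemoglobin. These totalled 14102663 under 20% and 976265 in the late range with at least 500 genes in PHZ, and 6455783 and 448148 in bleeding. As a level, Ireb2 in that late range was at 8.19 CPM in PHZ and 15.6 CPM in bleeding. For Aco1 the limit of 6.69 CPM in bleeding lay above its 3.96 CPM at 50 to 80%, so depth could not show a further decline there.

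Between PHZ and bleeding, the transcripts of these genes stood close to each other in the first 4 ranges and parted for Tfrc in the last 2. Of the 9, 8, 8, 5, 5 and 5 members with at least 100 UMIs over the ranges, 1 was higher in PHZ in each of the 2 last ranges, Tfrc both times, and none was lower in any range. The shares of all measurable genes called higher were 1.34%, 4.35%, 5.17%, 13.6%, 18.2% and 16.8% over the ranges, and those called lower were 2.39%, 3.57%, 3.59%, 8.92%, 7.20% and 13.7%. One call of 5 members is near the share called among all genes in these late ranges. The median log2 ratio of the measurable members was 0.10, 0.02, -0.01, 0.25, 0.19 and 0.19 over the ranges, beside -0.02, -0.02, -0.02, 0.00, 0.12 and 0.05 for all genes.

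Tfrc was at 324 CPM in PHZ cells of 80% or more haemoglobin with 300 to 500 genes, against 54.3 CPM in bleeding cells, from 523 and 92 UMIs. The ratio was 5.95 (4.76 to 7.51). In the barcodes with 50 to 300 genes it was 4.35 (3.39 to 5.62), from 261 UMIs in PHZ and 85 in bleeding. In the first 4 ranges PHZ was also above bleeding, by 1.36 times (1.32 to 1.41), 1.32 times (1.25 to 1.39), 1.45 times (1.40 to 1.5) and 1.45 times (1.27 to 1.65), each under the 1.5-fold size; with the haemoglobin cuts at 25%, 55% and 85% the ratio in the fourth was 2.37. A Tfrc UMI was found in 27.8% of the PHZ cells of the 300 to 500 gene range and in 5.58% of the bleeding cells. With every cell thinned to 300 UMIs these shares were 8.46% and 1.58%, beside 1.52% and 0.907% in B cell-like cells, which were measured for background.

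Free RNA differed in the same direction and its part in the late Tfrc result was not tested. In barcodes of 10 to 100 UMIs Tfrc was at 906 CPM in PHZ and 395 CPM in bleeding, a ratio of 2.29. When the free RNA in the 300 to 500 gene range was scaled by its immunoglobulin UMIs, which erythroid cells do not make, it came to 16.4% of the UMIs without haemoglobin in PHZ and 21.9% in bleeding, and to 149 CPM of Tfrc in PHZ (46.0% of the Tfrc measured) and 86.7 CPM in bleeding (160%). In the 50 to 300 gene range it came to 96.6% of the Tfrc measured in PHZ and 207% in bleeding, so in bleeding the Tfrc of both ranges was at or below the estimate for free RNA, and with that estimate subtracted no ratio could be given. In the range with at least 500 genes the same estimate was 11.4% in PHZ and 9.31% in bleeding. B cell markers summed to 630 CPM in PHZ and 2087 CPM in bleeding in the 300 to 500 gene range, neutrophil markers to 1458 and 766 CPM, and red pulp macrophage markers to 86.6 and 148 CPM, with 0 and 0 of the B cell, 1 and 2 of the neutrophil and 6 and 0 of the macrophage markers at 0.

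The libraries also differed in how the late cells were spread over clusters and haemoglobin shares, so Tfrc was read within these too. In the pooled late cells with 300 or more genes, Tfrc was at 568 CPM in PHZ and 184 CPM in bleeding, a ratio of 3.09. Within the 3 clusters that held most of them the ratio was 5.73, 5.02 and 2.43. Within cells of 80 to 85%, 85 to 90% and 90 to 95% haemoglobin it was 1.32, 2.78 and 6.44, and PHZ was the higher library in each. PHZ was thus the higher library in each cluster and band listed, and the ratio was larger at higher haemoglobin shares. In bleeding Tfrc was at 44.7, 67.7 and 341 CPM in these clusters, and at 1249, 222 and 48.6 CPM in these bands. The levels of 44.7, 67.7 and 48.6 CPM lay below the 86.7 CPM of Tfrc given above as a free RNA estimate in bleeding. Free RNA was not estimated within clusters or bands, and its part in the larger ratios was not tested.

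**Figure D3:**
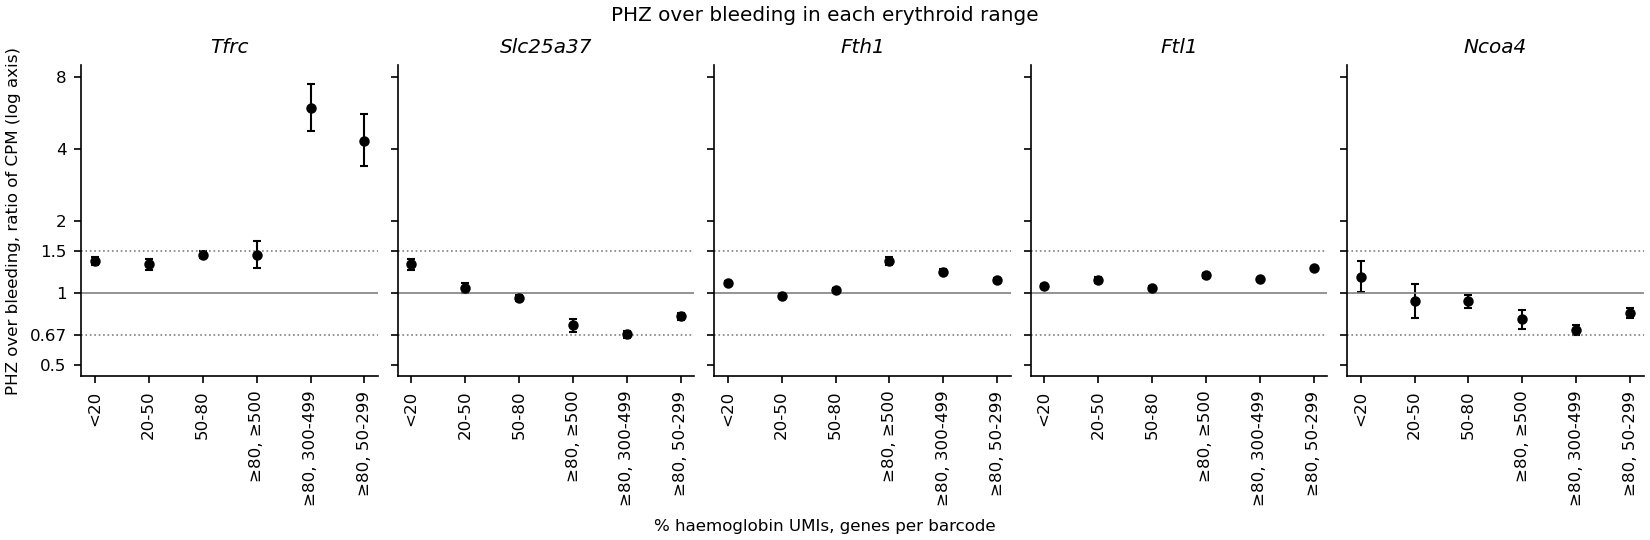
Ratio of the PHZ to the bleeding level (log axis) of 5 members in the 6 erythroid ranges, with 95% counting intervals; the solid line marks 1 and the dotted lines the 1.5-fold size. Tfrc lies at 1.32 to 1.45 in the first 4 ranges and at 5.95 and 4.35 in the last 2, while Slc25a37 and Ncoa4 lie below 1 in the last 3.

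Slc25a37, Ncoa4 and the ferritin chains differed by less than 1.5-fold between the libraries in every erythroid range. Slc25a37 was at 0.734 (0.690 to 0.781), 0.671 (0.647 to 0.697) and 0.80 (0.774 to 0.826) times the bleeding level in the 3 late ranges, and Ncoa4 at 0.776 (0.707 to 0.851), 0.699 (0.665 to 0.734) and 0.827 (0.788 to 0.868) times. Fth1 stood above the bleeding level in the same ranges, by 1.36 (1.31 to 1.42), 1.23 (1.21 to 1.26) and 1.14 (1.11 to 1.16) times, and Ftl1 by 1.19 (1.16 to 1.22), 1.14 (1.13 to 1.16) and 1.27 (1.26 to 1.29) times. Among late cells the PHZ library thus had more Tfrc and ferritin and less Slc25a37 and Ncoa4 per UMI, with only the Tfrc difference reaching the size rule, in the last 2 ranges. Within the 3 late clusters Slc25a37 was at 0.715, 0.732 and 0.771 times the bleeding level, Ncoa4 at 0.680, 0.752 and 0.812 times and Fth1 at 1.36, 1.21 and 1.26 times.

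Over all erythroid-like cells, Tfrc was at 1524 CPM in PHZ and 903 CPM in bleeding (1.69 times, called higher) and Ncoa4 at 356 and 587 CPM (0.607 times, called lower), where 2.33% of 9359 genes were higher and 5.09% lower. The mix of ranges differed between the libraries, with 1672 of 3133 PHZ cells and 1669 of 2274 bleeding cells at 80% or more haemoglobin. Ncoa4 differed by less than 1.5-fold in every single range, and the part of that mix in its pooled value was not tested.

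The least haemoglobinised cells were not uniform. One cluster of them, led by Car1 and with a median of 73492 UMIs, held 169 PHZ and 75 bleeding cells under 20% haemoglobin; its Fth1 was at 5033 CPM in PHZ and 4417 CPM in bleeding and its Tfrc at 710 and 481 CPM. Another, led by the mitotic genes Cenpf and Mki67 among others, held 115 PHZ and 59 bleeding cells of that range, and its Fth1 was at only 880 CPM in PHZ and 735 CPM in bleeding while its Tfrc was at 3057 and 2537 CPM. Slc25a37 was at 245 CPM in PHZ and 131 CPM in bleeding in the first cluster and at 2900 and 3302 CPM in the second. The ratio of PHZ to bleeding for Slc25a37 was 1.87 (1.73 to 2.03) in the first and 0.878 (0.798 to 0.967) in the second. A further cluster of 209 PHZ and 140 bleeding cells, with 35 of the 41 erythroid markers raised but a median of 2308 UMIs, was left unnamed and outside the ranges; its Fth1 was at 1109 CPM in PHZ and 968 CPM in bleeding and its Tfrc at 2724 and 2193 CPM.

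Red pulp macrophage-like cells showed the widest gap in ferritin between the libraries. Fth1 was at 39157 CPM in the 17 PHZ cells and 6978 CPM in the 216 bleeding cells, 5.61 times (5.31 to 5.93), and Ftl1 at 34595 and 6667 CPM, 5.19 times (4.89 to 5.5). Ferritin made up 7.38% of the UMIs without haemoglobin in PHZ and 1.36% in bleeding. Per cell there were 90.9 Fth1 UMIs in PHZ and 33.3 in bleeding, and 80.3 and 31.8 of Ftl1. The PHZ cells held fewer UMIs, with a median of 1992 against 7275. Without haemoglobin UMIs that gap was smaller, with a median of 1891 against 2585.5. In this class 20% of 2047 genes were higher and 54.4% lower, with a median log2 ratio of -0.84, and 3 of the 5 measurable members were higher and 2 lower.

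Fth1 ran between 13484 and 113594 CPM with a median of 37196 CPM over the single PHZ cells, and between 658 and 30901 CPM with a median of 7866 CPM over the bleeding cells. The groups overlapped: 44 of the 216 bleeding cells were at or above the lowest PHZ cell, and 12 of the 17 PHZ cells were above the highest bleeding cell. Ftl1 ran between 15269 and 98697 CPM with a median of 40454 CPM over the PHZ cells, and between 0 and 33248 CPM with a median of 6926 CPM over the bleeding cells, of which 35 were at or above the lowest PHZ cell while 12 PHZ cells were above the highest bleeding cell. The 3 highest PHZ cells held 33.8% of the Fth1 and 34.2% of the Ftl1 UMIs of their class. All 17 PHZ cells lay in 1 cluster, which held 131 bleeding cells, and within it the ratio was 3.57 for Fth1 and 2.97 for Ftl1; the remaining 85 bleeding cells formed a cluster of their own.

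The cells of the 2 libraries also differed in carried erythroid RNA. The median haemoglobin share was 3.16% in the PHZ cells and 49.3% in the bleeding cells. Over the summed UMIs of the class, from which its levels come, the share was closer, at 47.2% in PHZ and 53.6% in bleeding. The deepest PHZ cells, of 13242, 13260 and 14081 UMIs, were at 93.5%, 81.0% and 73.3%. The summed erythroid markers were at 17918 CPM in PHZ and 27488 CPM in bleeding, with 10 and 1 of the 41 at 0. The 18 red pulp macrophage markers were all detected in both libraries and summed to 21644 CPM in PHZ and 26617 CPM in bleeding, and monocyte markers summed to 4283 and 4624 CPM, with 10 and 2 at 0. B cell markers summed to 228 CPM in PHZ, with 16 of 22 at 0, and to 4302 CPM in bleeding, with 0 at 0, and stromal and endothelial markers to 50.7 and 424 CPM. When the profile of late erythroid cells was scaled by haemoglobin, it accounted for 2.59% of the Fth1 and 7.96% of the Ftl1 UMIs in PHZ, and for 13.8% and 44.1% in bleeding. With it subtracted, Fth1 was at 41740 CPM in PHZ and 6725 CPM in bleeding and Ftl1 at 34844 and 4167 CPM, so that the gap in Ftl1 was wider by over 1.5 times. The same profile accounted for 44.9% of the Slc25a37 and 30.7% of the Ncoa4 UMIs in PHZ, and for 22.5% and 34.7% in bleeding; with it subtracted Slc25a37 was at 351 CPM in PHZ and 1764 CPM in bleeding and Ncoa4 at 346 and 512 CPM. The profile of the 10 to 100 UMI barcodes, scaled in the same way, came to 13.2% of the Fth1 and 12.5% of the Ftl1 UMIs in PHZ, against 59.3% and 61.7% in bleeding. For Slc25a37 that came to 408% in PHZ and 116% in bleeding, for Ncoa4 to 55.2% and 53.1%, and for Tfrc to 196% and 658%. The part of the B cell and stromal RNA was not tested.

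**Figure D4:**
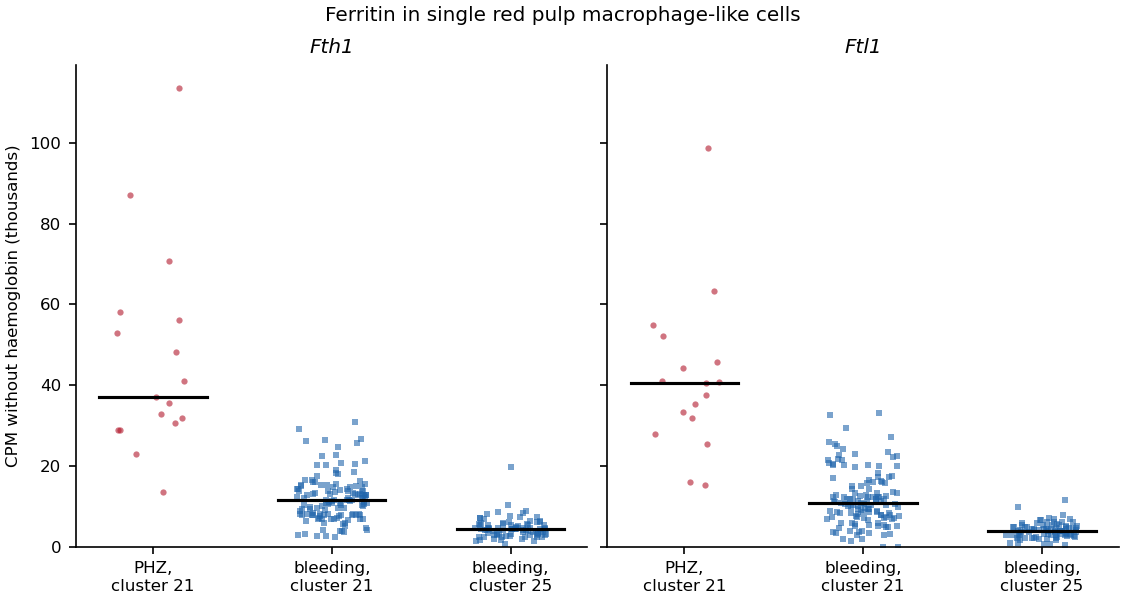
Fth1 and Ftl1 levels (CPM without haemoglobin UMIs, on an axis in units of 1000) in single red pulp macrophage-like cells, by library and cluster; points are cells and black bars medians. The 17 PHZ cells in cluster 21 lie higher than most of the 131 bleeding cells in that cluster and the 85 in cluster 25, with 12 PHZ cells above the highest bleeding cell for each gene.

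Other iron genes of the macrophages did not all follow ferritin. Hmox1, the enzyme that breaks down haem, was at 8845 CPM in PHZ and 1791 CPM in bleeding (4.94 times, 4.39 to 5.54). Slc40a1 was at 1597 and 2635 CPM (0.606 times, 0.464 to 0.778), and Trf, which encodes transferrin, at 380 and 1040 CPM (0.366 times, from 15 PHZ UMIs). Cd163, the receptor for haptoglobin-bound haemoglobin, had no UMI in PHZ, where a count of 0 allows up to 76.0 CPM, and 374 UMIs or 363 CPM in bleeding. Of the members, Slc25a37 was at 583 CPM in PHZ, from 23 UMIs, and 2035 CPM in bleeding (0.287 times, 0.181 to 0.431), and Ncoa4 at 456 and 701 CPM (0.651 times, 0.384 to 1.04). Tfrc was at 608 CPM in PHZ and 138 CPM in bleeding, but all 24 PHZ UMIs came from 3 cells, and with every cell weighted alike the ratio was 1.29. Ireb2 had 0 UMIs in PHZ and 51 in bleeding, Aco1 4 and 50, Steap3 0 and 5, and Slc11a2 1 and 22.

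Set against erythroid-like cells, macrophage-like cells had more Aco1 and less Tfrc in both libraries. Tfrc was at 0.399 times the erythroid level in PHZ (0.256 to 0.594) and at 0.152 times in bleeding (0.128 to 0.180). Aco1 was at 8.11 times in PHZ (2.2 to 21), from 4 UMIs, and at 3.87 times in bleeding (2.74 to 5.37). Slc11a2 and Steap3 also passed the size on the lower side, but from 1 and 0 UMIs in PHZ, where depth could not show a difference: the upper bounds of their ratios there were 2.42 and 1.47. Among the 7696 genes measurable in both libraries 12.5% were higher and 28.8% lower. Fth1 was at 5.5 times the erythroid level in PHZ and at 1.07 times in bleeding, and Ftl1 at 4.53 and 0.776 times. Against the pooled erythroid-like cells, ferritin thus passed the size rule in PHZ and did not in bleeding. For Ftl1 this did not hold against the latest cells. Ftl1 was at 34595 CPM in PHZ macrophage-like cells, beside 31936 and 41005 CPM in the last 2 PHZ erythroid ranges. For Fth1 the levels were 39157 CPM, beside 11085 and 12296 CPM. Without the 3 cells richest in Aco1 the Aco1 difference no longer passed the rule in both libraries.

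Monocyte-like cells differed in ferritin in the same direction as the macrophages, by less. Fth1 was at 3386 CPM in PHZ and 1863 CPM in bleeding (1.82 times, 1.72 to 1.93) and Ftl1 at 5210 and 3265 CPM (1.60 times, 1.53 to 1.67), where 4.28% of 4414 genes were higher and 2.47% lower. Hmox1 was at 222 CPM in PHZ and 64.2 CPM in bleeding (3.45 times, 2.56 to 4.75). Free RNA scaled by haemoglobin came to 6.09% of the Fth1 and 3.32% of the Ftl1 UMIs in PHZ, and to 17.3% and 9.77% in bleeding. The class held red pulp macrophage markers at a summed 2686 CPM in PHZ and 1924 CPM in bleeding, with 2 and 3 of 18 at 0, beside its own 20 monocyte markers at 29888 and 33374 CPM. Ireb2 was at 64.6 CPM in PHZ and 58.9 CPM in bleeding and Aco1 at 25.7 and 22.7 CPM, and neither was called; Tfrc had 24 UMIs in PHZ and 1 in bleeding.

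In lymphocytes ferritin did not separate the libraries by the size rule. Fth1 was at 1390 CPM in PHZ and 1396 CPM in bleeding B cell-like cells (0.996 times, 0.976 to 1.02), at 705 and 711 CPM in T cell-like cells (0.992 times, 0.951 to 1.03) and at 659 and 660 CPM in NK cell-like cells (0.999 times, 0.872 to 1.14). Ftl1 was at 699 CPM in PHZ and 593 CPM in bleeding B cell-like cells and at 613 and 484 CPM in T cell-like cells, ratios of 1.18 and 1.27. With free RNA subtracted the direction turned, with 0.775 times the bleeding level in B cell-like and 0.982 times in T cell-like cells, while Fth1 was then at 0.801 and 0.693 times. Ireb2 was at 83.1 and 73.5 CPM in B cell-like cells and at 56.1 and 61.7 CPM in T cell-like cells. In NK cell-like cells Ireb2 was at 88.6 CPM in PHZ and 53.6 CPM in bleeding (1.65 times, from 41 and 62 UMIs), where 2.21% of genes were higher and 4.02% lower.

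Tfrc and Slc25a37 passed the size rule in some lymphocyte classes, at low levels. Tfrc was at 50.1 CPM in PHZ and 29.7 CPM in bleeding B cell-like cells (1.69 times, 1.5 to 1.90), and Slc25a37 at 113 and 69.7 CPM (1.63 times, 1.51 to 1.76), where 3.00% of 10400 genes were higher and 1.62% lower. In T cell-like cells Slc25a37 was at 64.6 and 39.1 CPM (1.65 times, 1.42 to 1.92) and Tfrc at 35.5 and 26.2 CPM, below the size rule, where 1.94% of genes were higher and 1.54% lower. Without doublet removal both Slc25a37 calls ended, with ratios of 1.0 in B cell-like and 0.858 in T cell-like cells. Free RNA was richer in both genes in PHZ, with Slc25a37 at 1809 CPM in PHZ and 1032 CPM in bleeding. Scaled by haemoglobin it came to 180% of the Tfrc and 159% of the Slc25a37 UMIs of PHZ B cell-like cells, against 67.8% and 75.3% in bleeding, and to 189% and 208% in PHZ T cell-like cells, against 86.2% and 151% in bleeding. A value above 100% means that the estimate exceeded the UMIs measured, which was so for both genes in PHZ and in bleeding only for Slc25a37 in T cell-like cells. The scaling uses summed haemoglobin, which was 6.35% in PHZ B cell-like and 4.81% in PHZ T cell-like cells. The medians per cell were only 0.944% and 0.748%, so the estimate may be too high for most cells. The part of free RNA in these lymphocyte levels was not tested.

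Dendritic-like cells had higher Tfrc (1.75 times), Slc25a37 (2.68 times), Ftl1 (1.51 times) and Ncoa4 (1.71 times) in PHZ, where 6.50% of genes were higher and 2.68% lower. Free RNA came to 128% of the Tfrc and 211% of the Slc25a37 UMIs there in PHZ, and to 73.2% and 241% in bleeding, but to only 17.2% and 10.6% of the Ftl1 UMIs. Neutrophil-like cells had Tfrc at 55.4 CPM in PHZ and 30.1 CPM in bleeding (1.84 times), where 4.37% of genes were higher and 5.11% lower, and free RNA came to 145% and 135% of those UMIs. Their Ncoa4 was at 139 CPM in PHZ and 129 CPM in bleeding and their Fth1 at 1143 and 1423 CPM, neither called.

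**Figure D5:**
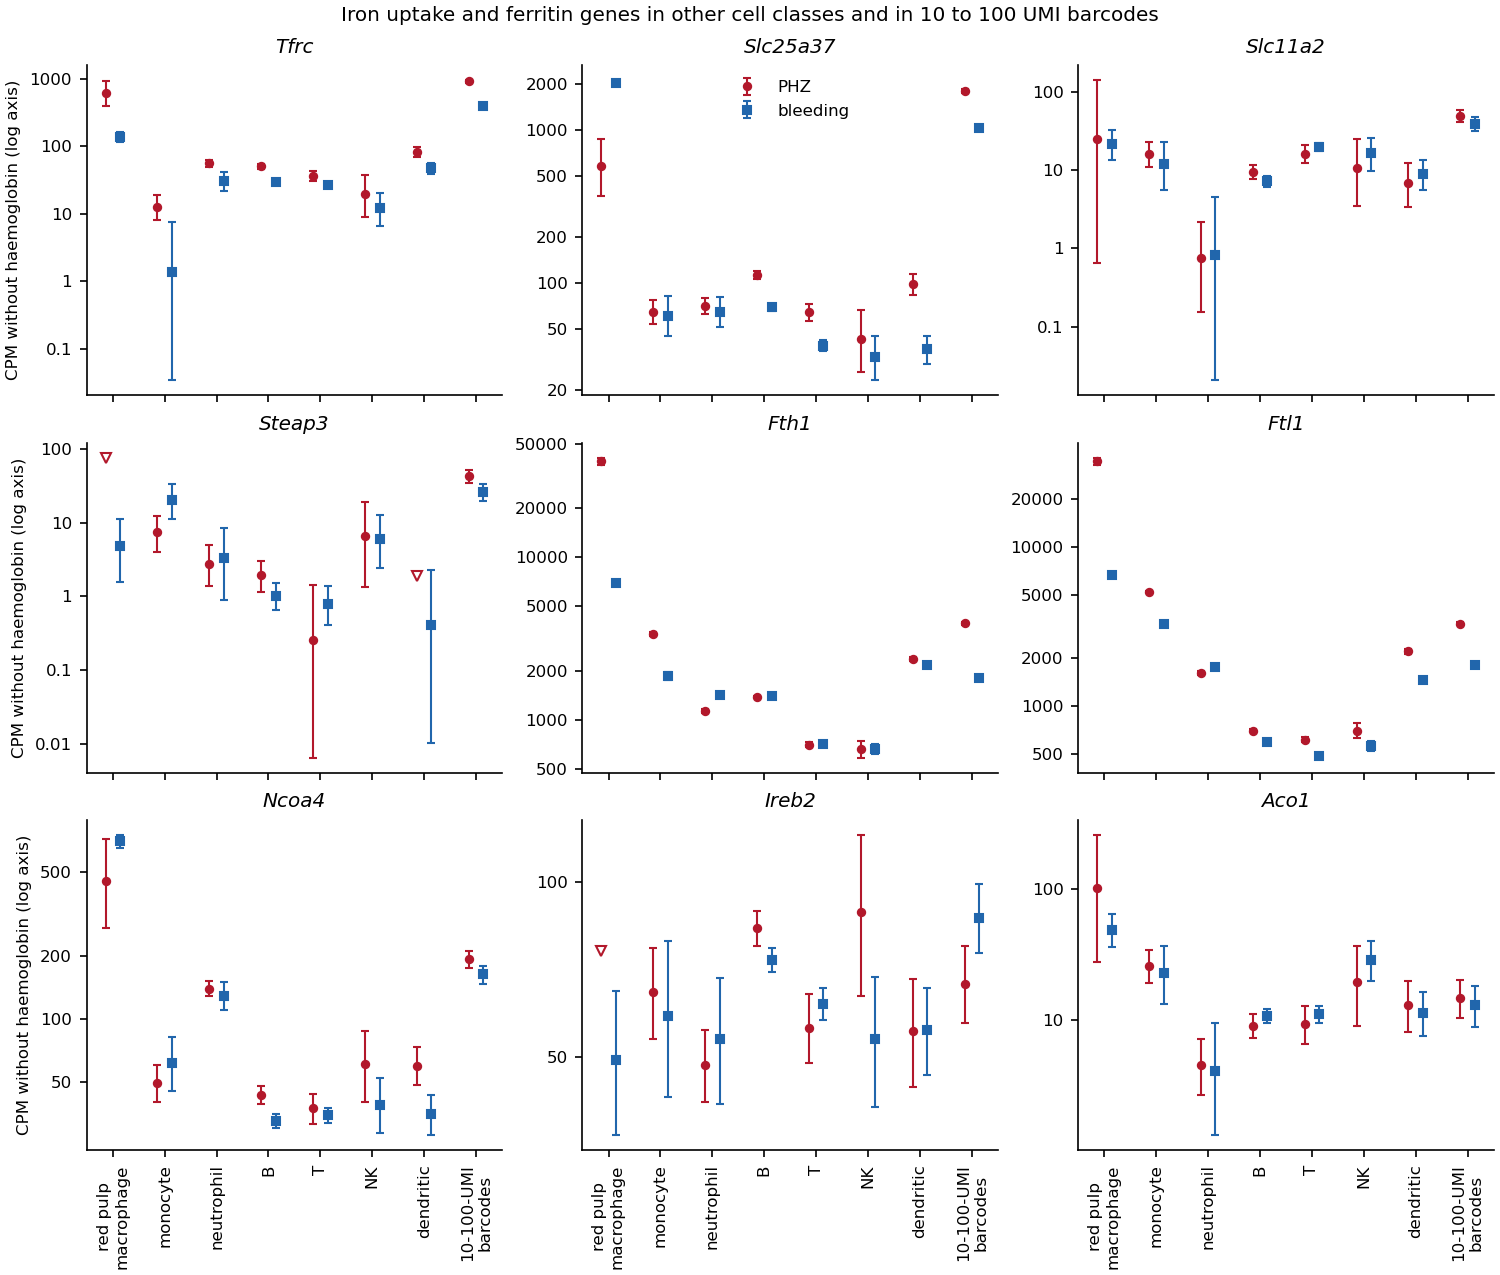
Level of each of the 9 genes (CPM without haemoglobin UMIs, log axis) in 7 other cell classes and in barcodes of 10 to 100 UMIs, for PHZ (red circles) and bleeding (blue squares), with 95% counting intervals; open triangles mark the limit that a count of 0 allows. Fth1 and Ftl1 separate the libraries most in red pulp macrophage-like cells (39157 CPM in PHZ and 6978 CPM in bleeding for Fth1), and Tfrc and Slc25a37 stand far higher in the free RNA of both libraries than in lymphocytes.

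The other genes of iron handling were read from 5 lists of 71 genes: uptake and delivery (18), storage and chaperones (8), regulation (11), export and recycling (8), and mitochondrial import and iron-sulfur clusters (26). Over the erythroid ranges 48, 32, 32, 12, 16 and 15 of them had at least 100 UMIs, and 1, 1, 1, 0, 3 and 2 were higher in PHZ while 1, 1, 0, 0, 0 and 1 were lower. Of all measurable genes 1.34%, 4.35%, 5.17%, 13.6%, 18.2% and 16.8% were higher over the ranges. The shares lower were 2.39%, 3.57%, 3.59%, 8.92%, 7.20% and 13.7%. The median log2 ratio of the list genes was 0.00, 0.04, -0.02, 0.00, -0.10 and -0.31, against the medians of all genes given above.

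The higher list genes in the late ranges were Abcb10, Pcbp1 and Lcn2. Abcb10, a mitochondrial transporter that stabilises mitoferrin 1, was at 259, 1042, 1244, 308, 60 and 76.9 CPM over the ranges in PHZ, against 207, 1009, 1266, 408, 32.5 and 28.8 CPM in bleeding, with ratios of 1.85 (1.31 to 2.62) and 2.67 (1.90 to 3.80) in the last 2. In the late range with at least 500 genes it was at 0.755 times the bleeding level (0.626 to 0.912), and like Tfrc it was higher in the free RNA of PHZ, at 464 CPM against 239 CPM in bleeding. Pcbp1, an iron chaperone that loads ferritin, had ratios of 2.12 and 2.03 in the last 2 ranges, from 79 and 66 UMIs in PHZ and 39 and 46 in bleeding, with a free RNA ratio of 1.67. Lcn2, a siderophore-binding protein of neutrophils, was at 61.2 CPM in PHZ and 31.3 CPM in bleeding in the 300 to 500 gene range and at 311 and 143 CPM in free RNA.

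The lower gene in the last range was Glrx5, which passes on iron-sulfur clusters, at 3014 CPM in PHZ and 4953 CPM in bleeding (0.608 times, 0.586 to 0.632). The remaining calls, named after their values were seen, were Hif3a (1.58 times) and Fdxr (0.631 times) under 20%, Nubp1 (1.59 times) and Iba57 (0.640 times) at 20 to 50% and Bola2 (1.71 times) at 50 to 80%, each from 28 to 166 UMIs a library. Alas2, on which erythroid haem synthesis depends, was at 152, 1512, 4602, 10873, 16114 and 24255 CPM over the ranges in PHZ, against 129, 1455, 4365, 10892, 17251 and 24805 CPM in bleeding. Its ratio was 0.998 (0.965 to 1.03), 0.934 (0.919 to 0.950) and 0.978 (0.964 to 0.992) in the 3 late ranges, so the late cells of the libraries lay closer in Alas2 than in Tfrc, Slc25a37 or Ncoa4; these differences between genes were not tested. Iscu, the scaffold of iron-sulfur clusters, was at 1269, 1862 and 1666 CPM over the late ranges in PHZ, against 1546, 2000 and 2137 CPM in bleeding. Slc40a1 was at 50.6, 61.1 and 41.0 CPM over the first 3 ranges in PHZ, against 52.5, 75.1 and 58.8 CPM in bleeding, and under 20% haemoglobin Fbxl5, which marks IRP2 for degradation, was at 18.1 and 18.9 CPM and Slc25a28, mitoferrin 2, at 19.4 and 23.5 CPM.

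Between the late range with at least 500 genes and the 20 to 50% range, 20 list genes could be compared in both libraries, and 8 were higher and 11 lower in the late range, beside 17.5% and 62.0% of all genes. Of the mitochondrial list 5 were higher and 3 lower, of the regulation list 2 and 3, of the export list 1 and 0, of the uptake list 0 and 2, and of the storage list, which does not hold the ferritin chains, 0 and 3. In macrophage-like cells 21 list genes had at least 100 UMIs. Of these 4 were higher in PHZ and 12 lower, near the 20% higher and 54.4% lower among all measurable genes of that class. Beside Hmox1 the higher list genes were Slc48a1, a haem transporter, Rbx1 and Herc2, named after their values were seen and from 7 to 20 PHZ UMIs each. Exoc6, Skp1a, Cul1, Pcbp2, Lrp1 and Iscu were among the lower ones, from 1 to 6 PHZ UMIs each, and Glrx5 from 11.

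The genes whose pattern was most like that of each member were ranked by the lower of the 2 libraries' correlations over 13 points, among 8252 genes. The points were the 5 erythroid ranges with 300 or more genes, the 7 other classes and a small basophil and mast cell-like cluster. These points share libraries, depth and free RNA, so the values are descriptions. Tfrc was nearest to Ermap (r = 0.98 in PHZ and 0.96 in bleeding), an erythroid membrane protein, Mfsd2b and Cldn13. Slc25a37 was nearest to Slc4a1 (0.98 in both), the anion exchanger of the red cell membrane, Fech, the last enzyme of haem synthesis, and Tspo2. Ncoa4 was nearest to Rnf11 (0.99 in PHZ and 0.97 in bleeding), Gadd45a and Adipor1, and Ftl1 to Creg1 (0.97 and 0.98), its own copy Ftl1-ps1 and Sdcbp.

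Fth1 was nearest to Hebp1 (0.92 in PHZ and 0.91 in bleeding), a haem-binding protein, to Ftl1 (0.94 and 0.90) and to Creg1. Slc11a2 was nearest to Aars (0.95 and 0.98), an alanyl-tRNA synthetase, St7 and Ppp2r1b, and Steap3 to Mcm10 (0.95 and 0.91), a DNA replication factor, Bard1 and 1700034P13Rik. Ireb2 was nearest to Rnf214 (0.96 in both), Lcorl and Sos1, and Aco1 to Cndp2 (0.96 and 0.90), Plpbp and Wwp1. The members therefore did not name each other as neighbours, apart from the ferritin chains, with Ftl1 among the 3 nearest to Fth1.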

How the data were processed

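The authors deposited 1 matrix of raw UMI counts per library, with 1608470 barcodes for PHZ and 1698351 for bleeding. Cell Ranger 7.0.0 and the mm10 build are named per the submitters' processing notes; the matrices' headers name another release of Cell Ranger, and the annotation and the handling of intronic reads are not given in the sources used here. The total was 128130213 UMIs for PHZ and 145260780 for bleeding.

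Cells were barcodes that reached 1000 UMIs and 300 genes and whose mitochondrial share did not pass 10% (6445 in PHZ and 9707 in bleeding), and the cells with the highest Scrublet scores (scanpy 1.11.5, expected rate 0.06), 0.8% per 1000 cells, were removed as doublets (332 and 754). Both libraries were clustered together (2000 variable genes without the 9 members and without haemoglobin, mitochondrial, ribosomal, immunoglobulin, T cell receptor and sex-linked genes; 30 components, 15 neighbours, Leiden resolution 1). A cluster took the name of a class when at least 60% of that class's markers, and at least 3, were 2-fold above the median cluster, unless another class had more markers among its first 10 genes or its depth was too low. This naming rule was set after the clusters were seen. Barcodes with at least 50 but fewer than 300 genes and at least 80% haemoglobin were kept as a range of their own.

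UMI sums without haemoglobin genes gave CPM, and ratios have exact conditional 95% intervals. The intervals were run on simulated independent counts with known ratios. Such counts follow the model the intervals assume and carry no spread between cells, so they cannot show how that spread affects the intervals. A count of 0 was given the limit of 3 UMIs. UMIs limit but do not remove amplification errors, and intervals and limits cover counting error only. The named list genes passed 1.5-fold in at least 2 erythroid ranges or 2-fold in 1 class with at least 100 UMIs, to which Alas2, Slc40a1, Hmox1, Slc25a28, Abcb10 and Fbxl5 were added. Neighbour genes had at least 500 UMIs in each library and were ranked on log2(CPM + 10). The members, lists and tests were chosen with earlier results of these data known. Alternatives varied the filters, doublet removal, clustering, haemoglobin cuts, scaling, background subtraction and the minimum of UMIs. Sequences were read from GRCm38 with GENCODE gene models. Versions were python 3.11.15, numpy 2.4.6, scipy 1.17.1, pandas 2.3.3, leidenalg 0.10.2, scikit-learn 1.9.0 and matplotlib 3.10.9.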

Additional observations from a re-analysis of the deposited data

Results flagged for a closer look

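Slc25a37 stood on opposite sides of bleeding in different classes. In PHZ it was at 0.287 times the bleeding level in red pulp macrophage-like cells, but at 1.63 times in B cell-like, 1.65 times in T cell-like and 2.68 times in dendritic-like cells. Ncoa4 was likewise at 0.651 times in red pulp macrophage-like cells and at 1.71 times in dendritic-like cells. Without doublet removal the Slc25a37 ratio was 1.0 in B cell-like and 0.858 in T cell-like cells. With 1 library per group these differences between classes were not tested.

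Beside them stand the values of the RNA that the droplets share. Free RNA scaled by haemoglobin came to 159% of the Slc25a37 UMIs in PHZ and 75.3% in bleeding for B cell-like cells, to 208% and 151% for T cell-like cells, and to 211% and 241% for dendritic-like cells. For Ncoa4 in dendritic-like cells it came to 36.9% in PHZ and 40.2% in bleeding. In the macrophage-like cells it came to 408% of the Slc25a37 UMIs in PHZ and 116% in bleeding, and to 55.2% and 53.1% of those of Ncoa4. There the PHZ values rest on 23 UMIs of Slc25a37 and 18 of Ncoa4 in 17 cells. The median haemoglobin share was 3.16% in PHZ and 49.3% in bleeding, and the share over the summed UMIs was 47.2% and 53.6%. The part of these quantities in the 6 ratios was not tested.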

How the results depend on the processing

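No paired analysis was possible because each group has 1 library. The counts given in the report were 2 pairs of a member and an erythroid range higher in PHZ and 0 lower, 8 list pairs higher and 3 lower, 2 members higher and 2 lower in late than in early cells, and 1 higher in macrophage-like than in erythroid-like cells. With all UMIs, haemoglobin included, as the denominator, 0 members were higher and 4 lower in late cells and 3 were higher in macrophage-like cells. With every cell scaled alike, 5 list pairs were lower. With median-of-ratios scaling 1 member pair was lower, Slc25a37 in the late range with 300 to 500 genes, and with background subtracted the same pair and 8 list pairs were lower; that subtraction gave no value for the macrophage count, and no Tfrc ratio in the last 2 ranges. Without the 3 highest cells of each gene, 13 list pairs were higher, 1 was lower, and 0 members were higher in macrophage-like cells. With no minimum of UMIs per gene, 9 member pairs were higher and 2 lower, 60 list pairs were higher and 65 lower, and 5 members were lower in late cells. The cause was not tested in any of these cases. In the last, the setting itself let genes with few UMIs enter the counts.

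Of 169 alternative values for the 12 called member results, 168 kept their direction and 1 turned. Part of the 169 could not turn. The setting with no minimum of UMIs per gene leaves every ratio as it was. Other haemoglobin cuts change no class outside the erythroid ranges. The count of 168 is therefore no measure of how stable the calls are. Slc25a37 in T cell-like cells was at -0.22 on the log2 scale without doublet removal, and in B cell-like cells its ratio was then 1.0. Alternatives that left a level of 0 were not among the 169. With free RNA subtracted, Tfrc and Slc25a37 in PHZ B cell-like cells were left at 0, since the estimate came to 180% and 159% of their UMIs. In bleeding it came to 67.8% and 75.3%, so there PHZ was no longer the higher library. Tfrc ran between 5.69 and 6.19 times in the 300 to 500 gene range, and in the range with at least 500 genes it reached 2.37 with cuts at 25%, 55% and 85%. At 50 to 80% haemoglobin it reached 1.505 with all UMIs as the denominator. Fth1 in macrophage-like cells ran between 3.63 and 6.39 times and Ftl1 between 3.35 and 5.90; within the cluster that both libraries share, an alternative chosen after seeing the data, they were at 3.57 and 2.97 times. The erythroid RNA subtraction, also chosen after seeing the data, kept the macrophage count at 1. Depth limits Steap3, Slc11a2, Ireb2 and Aco1 in late erythroid cells, and the members other than ferritin in the 17 PHZ macrophage-like cells.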
